A study of Mus musculus with 6 samples.

Results

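Myeloid C-type lectin receptors are surface proteins that recognise sugars, glycolipids and products of damaged cells, and 10 of their genes are described here: Clec4e, Clec4d, Clec4n, Clec7a, Clec1b, Clec5a, Clec12a, Mrc1, Mgl2 and Clec10a. They were taken by symbol from the 29872 gene rows of the deposited count table. They were chosen by their symbols with their CML and WT levels in these same libraries known, so their difference between the groups is given as a description and carries no test. Bulk RNA sequencing was done on 3 CML and 3 WT mouse libraries, a contrast of chronic myeloid leukaemia stem cells with normal haematopoietic stem cells. Both groups were untreated C57BL/6 bone marrow cells that the labels call stem cells, expanded ex vivo and sorted as Lin-Sca1+cKit+CD150+. The labels name neither the allele nor the driver behind the leukaemia, nor the age of the animals. Separate cultures or animals behind the replicates are not stated either, so the p-values below measure a spread between libraries that may be technical. Library totals ran from 13323469 to 17926847 counts.

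The receptors fall into classes by how they signal. Clec4e (Mincle), Clec4d (MCL) and Clec4n (Dectin-2) associate with the Fc receptor gamma chain, whose phosphorylated motif recruits the kinase Syk, and Clec7a (Dectin-1) and Clec1b (CLEC-2) carry a short Syk-recruiting motif in their own tails. Clec5a (MDL-1) pairs with the adaptor Tyrobp, and Clec12a (MICL) carries an inhibitory motif. Mrc1 (the mannose receptor), Mgl2 and Clec10a act mainly in ligand uptake and are widely used as markers of alternatively activated macrophages and of some dendritic cells. In bulk libraries, fewer cells of a type and less RNA per cell cannot be told apart.

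Of the 10 genes, 7 lie on mouse chromosome 6 (GRCm38, GENCODE M21). Clec4n, Clec4d and Clec4e stand in a row, with 15089 and 6523 bases between neighbours, and Clec12a, Clec1b and Clec7a stand in another. Mgl2 and Clec10a lie 18646 bases apart on chromosome 11, and Mrc1 lies on chromosome 2. The 250 bases before the RefSeq start (GRCm38.p6) are printed for the clustered pair that was lower in CML and for the 2 genes with the highest log2 fold change among the 8 in the fit, so that the sequences of both directions can be read side by side. Clec4e spans chr6:123289872-123290121 on the minus strand, Clec4d chr6:123261857-123262106, Mgl2 chr11:70130107-70130356 and Mrc1 chr2:14229164-14229413, all 3 on the plus strand. Capitals mark matches to GAGGAA, the core bound by the myeloid factor PU.1, or to TTGCNNAA, a site form of C/EBP factors, on either strand, with no overlap between the capitals.
Clec4e: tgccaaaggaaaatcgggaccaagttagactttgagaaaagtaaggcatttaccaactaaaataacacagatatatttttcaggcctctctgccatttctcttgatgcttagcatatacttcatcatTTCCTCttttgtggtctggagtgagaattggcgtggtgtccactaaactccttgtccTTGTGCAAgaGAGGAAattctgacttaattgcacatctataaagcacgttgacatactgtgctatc
Clec4d: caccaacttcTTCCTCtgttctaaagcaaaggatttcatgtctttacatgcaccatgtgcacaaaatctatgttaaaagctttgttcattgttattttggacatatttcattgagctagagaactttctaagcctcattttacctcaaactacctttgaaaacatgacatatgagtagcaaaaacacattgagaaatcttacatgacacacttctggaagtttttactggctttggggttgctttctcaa
Mgl2: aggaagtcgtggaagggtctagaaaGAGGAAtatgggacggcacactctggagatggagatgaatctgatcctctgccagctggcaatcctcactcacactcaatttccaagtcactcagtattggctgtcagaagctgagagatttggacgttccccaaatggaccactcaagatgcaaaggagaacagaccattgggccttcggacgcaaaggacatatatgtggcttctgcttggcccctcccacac
Mrc1: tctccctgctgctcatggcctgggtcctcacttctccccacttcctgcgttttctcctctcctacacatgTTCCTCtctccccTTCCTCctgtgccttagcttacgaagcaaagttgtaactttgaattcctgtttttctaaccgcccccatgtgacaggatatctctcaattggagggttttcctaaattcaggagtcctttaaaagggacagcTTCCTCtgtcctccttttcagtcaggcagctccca
Of the 10 genes, 8 had a promoter entry. GAGGAA occurred in 7 of these 8, all but Clec1b, against 23.3% of the 32851 promoter windows of the same length. Genes from both directions held it, with 3 matches in Mrc1, 2 in Clec4e and 1 each in Clec4d and Mgl2. TTGCNNAA occurred in Clec4e and Clec12a (9.56% of all windows), and TGANTCA, an AP-1 form, in Clec12a (6.75%). TTCNNNGAA, a STAT form, was in none of the 8 windows (7.02% of all windows). A match describes letters in the window and shows no binding.

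Of the 8 genes with enough counts for the fit, 5 passed the genome-wide threshold as higher in CML and 3 as lower (adjusted p under 0.05, edgeR's quasi-likelihood test over 16221 genes). Across all genes tested, 10.2% passed as higher (1652 genes) and 7.20% as lower (1168 genes). With single libraries left out, these counts ran from 1011 (without WT replicate 2) to 2021 (without WT replicate 3) genes higher. For genes lower they ran from 455 (without WT replicate 2) to 2101 (without WT replicate 3). Of all calls, 58.6% were higher, and 73.8% with scaling by library totals. Since the genes were chosen with this contrast known, nothing is read from that count. Their median log2 fold change was 1.70, and that of all genes tested was -0.004. The libraries of the groups did not overlap for any of these 8 genes, 5 with CML above and 3 with CML below. Among all genes tested, 35.0% did not overlap. CML lay above WT without overlap in 18.5% and below it in 16.5%. Levels below are counts scaled to library size (CPM), with the mean ± SD over 3 libraries per group, and fold changes are CML over WT.

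**Figure D1:**
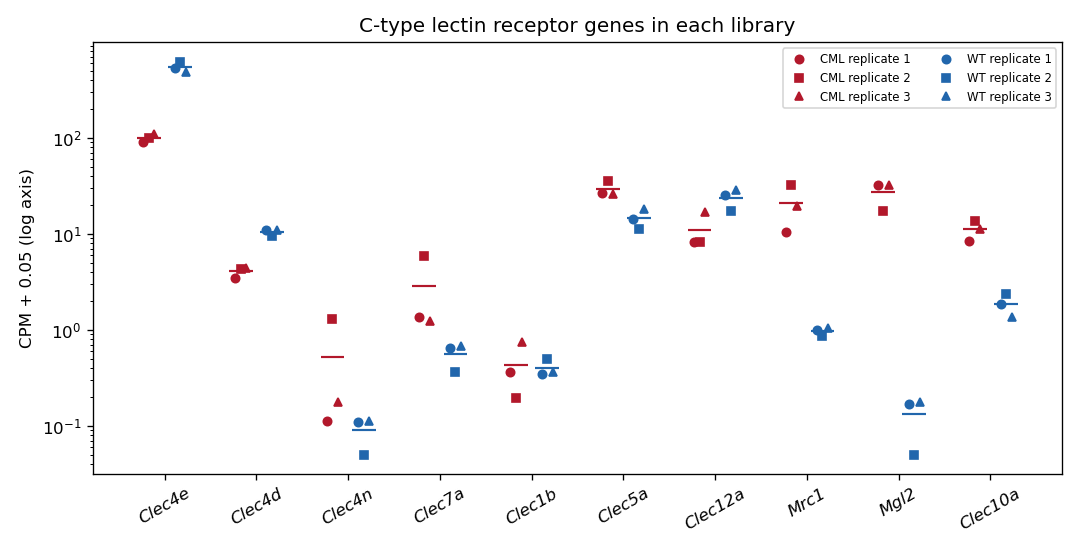
Level of each of the 10 genes in each library, in CPM plus 0.05 on a log axis, with CML left of WT; points are libraries and the horizontal bar is the group mean. Clec4e, Clec4d and Clec12a lie lower in all 3 CML libraries than in any WT library, and Clec7a, Clec5a, Mrc1, Mgl2 and Clec10a lie higher. Clec1b overlaps, and Clec4n has 1 count in CML replicate 1 and in each of WT replicates 1 and 3, which only scaling sets apart.

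Clec4e, a receptor for mycobacterial cord factor and for material released by dying cells, was lower in CML and, per kilobase of transcript, still the most abundant of these genes in either group. It had 89.8, 99.6 and 109 CPM in the CML libraries, against 536, 619 and 486 CPM in the WT libraries. Every CML value was thus far below every WT value. The means were 99.5 ± 9.58 CPM in CML against 547 ± 67.2 CPM in WT. Clec4e was 5.50-fold lower (log2 fold change -2.46, SE 0.13). Leaving out single libraries moved the log2 fold change only between -2.54 and -2.37.

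Clec4d, which forms complexes with Clec4e and whose gene is its neighbour, was also lower in CML. It had 3.45, 4.23 and 4.38 CPM in the CML libraries, against 10.9, 9.34 and 10.96 CPM in the WT libraries. The groups did not overlap, and the log2 fold change was -1.37 (SE 0.20). The ratio of Clec4e counts to Clec4d counts was 26.0, 23.5 and 24.9 in the CML libraries, against 49.3, 66.3 and 44.3 in the WT libraries, so the pair was not lower in proportion.

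Clec4n, the third gene of the row and a receptor for fungal mannans, stood close to the detection limit. It had 1, 17 and 2 counts in the CML libraries, against 1, 0 and 1 in the WT libraries. CML replicate 2 alone held 17 of the 20 CML counts, and CML replicate 1 had no more counts than WT replicates 1 and 3. The ratio of the 20 CML counts to the 2 WT counts, scaled by library size, was 10.7 (95% exact binomial interval 2.59 to 94.1, for counting error only). The gene had too few counts for the fit. Of its 50-base words, 0.93% also occur in the gene model Gm44147.

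Clec7a, the beta-glucan receptor, was low in all libraries and higher in CML. It had 1.32, 5.84 and 1.19 CPM in the CML libraries, against 0.597, 0.316 and 0.623 CPM in the WT libraries. The groups did not overlap, and CML replicate 2 stood far above the other CML libraries. The log2 fold change was 2.40 (SE 0.69), and without CML replicate 2 it was 1.28 and no longer passed the threshold. Without any 1 WT library the call was lost too, at log2 fold changes of 2.52, 2.15 and 2.55 without WT replicates 1, 2 and 3. GENCODE M21 lists Clec7a as a polymorphic pseudogene.

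Clec1b, the podoplanin receptor of platelets and megakaryocytes, overlapped between the groups. It had 5, 2 and 11 counts in the CML libraries, against 5, 7 and 5 in the WT libraries, too few for the fit. The sums of 18 counts in CML and 17 in WT allow no direction.

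Clec5a, which reaches Syk through Tyrobp and is known as a receptor on monocytes and neutrophils, was higher in CML. It had 26.9, 35.2 and 25.9 CPM in the CML libraries, against 14.4, 11.2 and 18.1 CPM in the WT libraries. The lowest CML value was above the highest WT value, and the log2 fold change was 1.01 (SE 0.19).

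Clec12a, an inhibitory receptor for uric acid crystals and in humans a surface marker of leukaemic blasts, was lower in CML. It had 8.16, 8.17 and 16.8 CPM in the CML libraries, against 25.4, 17.3 and 28.9 CPM in the WT libraries. The groups were apart only by the small gap between CML replicate 3 and WT replicate 2. The log2 fold change was -1.11 (SE 0.32). It lay at -0.93 without CML replicate 1 or 2, -1.07 without WT replicate 1 and -0.95 without WT replicate 3, and did not pass the threshold in any of these 4 fits. Without CML replicate 3 it was -1.55.

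Mrc1, an endocytic receptor for mannosylated glycoproteins, was near 1 CPM in WT and higher in CML. It had 10.4, 32.3 and 19.4 CPM in the CML libraries, against 0.956, 0.821 and 0.997 CPM in the WT libraries. The WT libraries lay close together, while the CML libraries differed by 3.10-fold between their lowest and highest. The log2 fold change was 4.47 (SE 0.46), or 22.2-fold higher, and stayed between 4.00 and 4.79 with any 1 library left out.

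Mgl2 had the largest fitted log2 fold change of the 8 genes. It is a receptor for galactose and N-acetylgalactosamine known from dermal dendritic cells and alternatively activated macrophages. It had 515, 239 and 510 counts (32.3, 17.4 and 31.9 CPM) in the CML libraries, against 2, 0 and 2 counts in the WT libraries. At these counts the gene was close to the detection limit in WT and clear of it in every CML library. The log2 fold change was 8.24 (SE 0.46), a value that depends on how the fit treats the 4 WT counts in all.

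Clec10a, the closest relative of Mgl2 in the mouse and also a galactose-type receptor, was higher in CML. It had 8.41, 13.7 and 11.1 CPM in the CML libraries, against 1.79, 2.34 and 1.31 CPM in the WT libraries. The groups did not overlap, and the log2 fold change was 2.61 (SE 0.27). The ratio of Mgl2 counts to Clec10a counts was 3.84, 1.27 and 2.87 in the CML libraries, against 0.067, 0 and 0.095 in the WT libraries. Mgl2 thus had more counts than Clec10a in every CML library and fewer in every WT library. Of the 50-base words of Mgl2, 15.3% also occur in Clec10a, and 10.6% of those of Clec10a occur in Mgl2. How shared reads were divided is not given in the sources used here, so the split between the pair is uncertain.

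**Figure D2:**
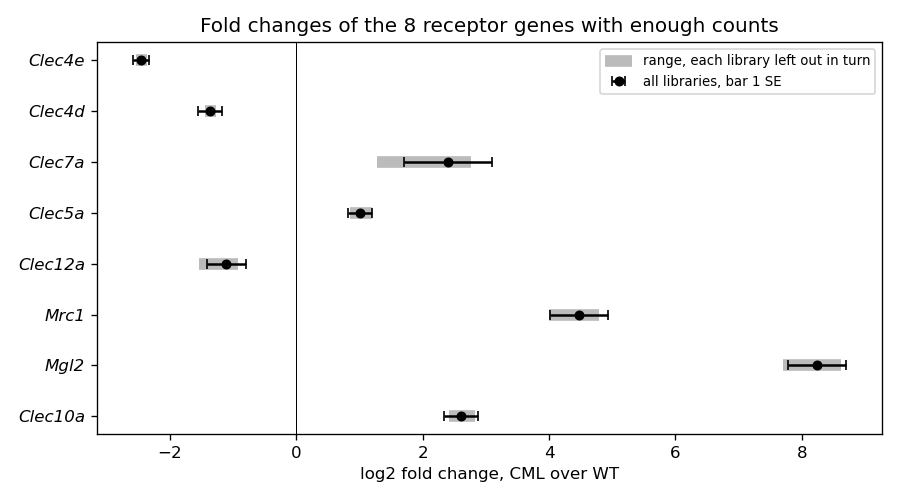
Log2 fold change, CML over WT, of the 8 genes in the fit; points are estimates with 1 SE and the grey line is the range with single libraries left out. Mgl2 and Mrc1 lie farthest to the higher side and Clec4e to the lower side, and the grey line is widest for Clec7a.

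CML replicate 2 had the highest CML value for 5 of the 10 genes, Clec4n, Clec7a, Clec5a, Mrc1 and Clec10a. For 3 of them, Clec4n, Mrc1 and Clec10a, CML replicate 1 had the lowest. Mgl2 was instead lowest in CML replicate 2, so the genes that were higher in CML did not share 1 order of libraries.

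Levels were compared between genes as CPM per kilobase of the longest coding transcript. In CML the order began with Clec4e at 39.5 ± 3.80, Mgl2 at 16.7 ± 5.19 and Clec5a at 7.82 ± 1.36 CPM per kilobase, and none of these 3 overlapped with the next gene down. Clec10a (4.76 ± 1.14), Clec12a (4.42 ± 2.00), Mrc1 (3.85 ± 2.05) and Clec4d (3.04 ± 0.38 CPM per kilobase) followed, and each pair of neighbours among these overlapped. Clec7a, Clec4n and Clec1b came last. In WT, Clec4e stood at 217 ± 26.7 CPM per kilobase. Clec12a (9.55 ± 2.38) and Clec4d (7.86 ± 0.69) came next and overlapped each other, and Clec5a (3.88 ± 0.92 CPM per kilobase) followed without overlap. Mgl2 held place 2 in CML and place 9 in WT.

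Summed over the 10 genes, the level was 82.0 ± 7.23 CPM per kilobase in CML and 240.1 ± 22.9 CPM per kilobase in WT. Clec4e made up 48.1 ± 0.48% of that sum in CML and 90.3 ± 2.45% in WT. Without Clec4e the sum was 42.5 ± 3.43 in CML and 22.9 ± 3.81 CPM per kilobase in WT, so the direction of the sum turned on that 1 gene. Mgl2 took 20.4 ± 6.77% of the sum in CML and 0.022 ± 0.019% in WT. Clec5a took 9.59 ± 1.89% in CML and 1.65 ± 0.54% in WT.

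**Figure D3:**
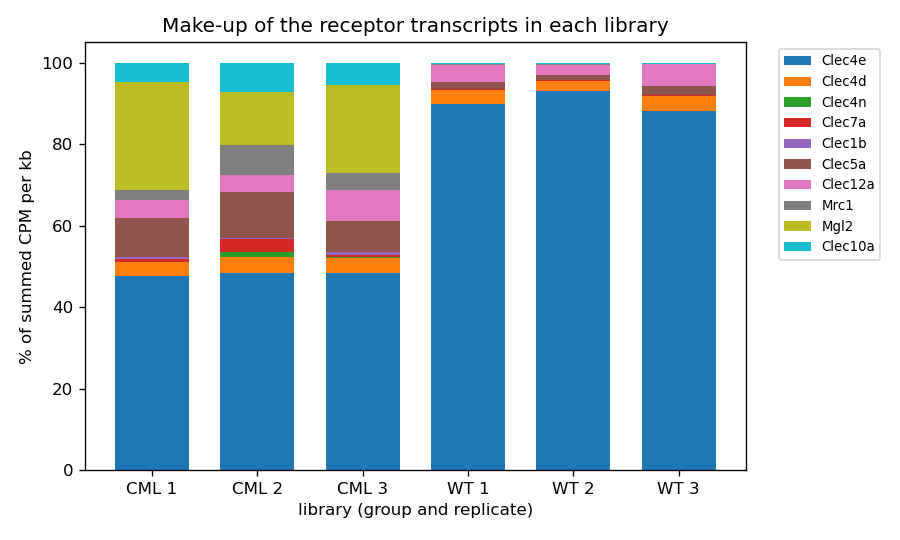
Share of each gene in the summed level of the 10 genes, in percent of CPM per kilobase, as 1 stacked bar per library with CML left of WT. Clec4e fills about 48.1% of the bars in CML and 90.3% in WT.

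This list and those below were chosen with earlier results of these data known, so their counts are descriptions and no independent test. They stand beside 10.2% of all genes tested that passed as higher and 7.20% as lower. The adaptors and kinases of these receptors were examined as a list of 18 genes, of which 17 were tested. Of these, 4 passed as higher in CML and 1 as lower, with a median log2 fold change of 0.34. Prkcd, the kinase that links Syk to Card9, had a mean of 97.5 ± 10.1 CPM in CML against 38.4 ± 5.33 CPM in WT (log2 fold change 1.34 with an SE of 0.13, adjusted p = 2.58e-05 by edgeR's quasi-likelihood test). Syk had 74.3, 71.5 and 70.5 CPM in the CML libraries, against 46.2, 48.9 and 49.9 CPM in the WT libraries. Its log2 fold change was 0.58 (SE 0.11, edgeR adjusted p = 0.00294), with no overlap. Vav3, an exchange factor downstream of Syk, fell by 0.65 on the log2 scale (edgeR adjusted p = 0.00645). Plcg2, a phospholipase, and Map3k14, a kinase of the alternative NF-kappaB route, passed narrowly (log2 fold changes 0.38 and 0.90, edgeR adjusted p = 0.0427 and 0.0492). Plcg2 lost its call without CML replicate 2 or 3 or WT replicate 1 or 2, at adjusted p = 0.145, 0.148, 0.0572 and 0.228. Map3k14 lost it without any 1 library but CML replicate 1, at adjusted p = 0.141, 0.155, 0.172, 0.0545 and 0.088. Plcg2 also lost it with no count filter (edgeR adjusted p = 0.0734) and with the replicate block (0.0555). Map3k14 also lost it with DESeq2 (adjusted p = 0.0631) and with RLE scaling (edgeR adjusted p = 0.0506).

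With edgeR over all 6 libraries, the adaptor genes themselves did not pass. Fcer1g, the Fc receptor gamma chain, had a mean of 31.3 ± 13.4 CPM in CML against 20.4 ± 4.40 CPM in WT (log2 fold change 0.61, edgeR adjusted p = 0.235). Tyrobp, the adaptor of Clec5a, had a mean of 10.3 ± 4.87 CPM in CML against 4.29 ± 1.63 CPM in WT (log2 fold change 1.26, edgeR adjusted p = 0.0506). Card9, which passes the Syk signal to NF-kappaB, had a mean of 6.66 ± 4.02 CPM in CML against 3.52 ± 1.66 CPM in WT (log2 fold change 0.91, edgeR adjusted p = 0.369). Without CML replicate 1 the edgeR adjusted p-values of Fcer1g, Tyrobp and Card9 were 0.0147, 0.00333 and 0.0286, and without WT replicate 3 that of Tyrobp was 0.0325. Tyrobp also passed with DESeq2 (adjusted p = 0.00208), library totals (0.0477), a minimum mean of 50 counts (0.0471) and the replicate block (0.0251). The list had 7 genes higher without CML replicate 1, and 2 without CML replicate 2 or 3 or WT replicate 1 or 2. Ptpn11, a phosphatase, was among the abundant genes that did not pass (log2 fold change 0.03).

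**Figure D4:**
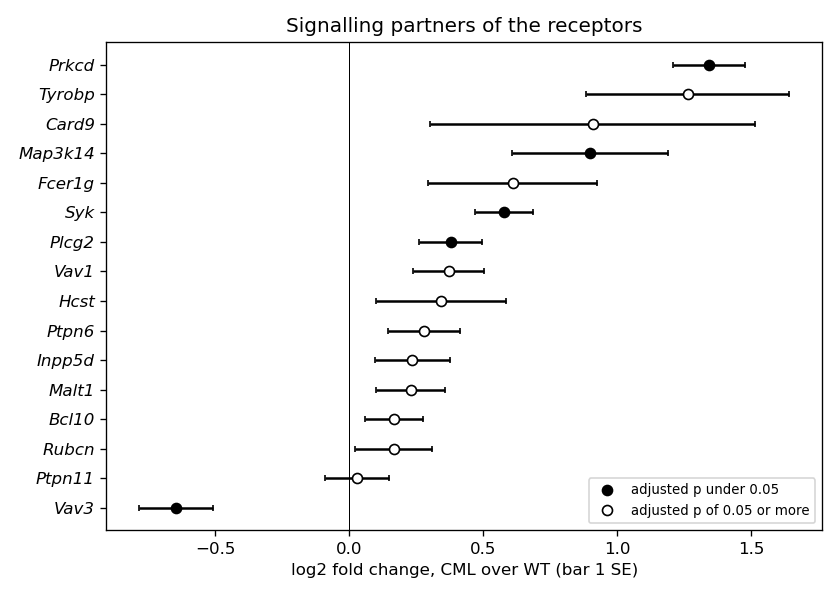
Log2 fold change, CML over WT, with 1 SE, of 16 of the 17 tested adaptors and kinases of these receptors; filled points pass the edgeR adjusted p threshold. Prkcd lies highest at 1.34 and Vav3 lowest at -0.65.

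Cytokine and early genes that these receptors can induce were partly higher. Of 13 tested of 20, 6 passed as higher and 1 as lower. Il6 had a mean of 118 ± 8.42 CPM in CML against 11.9 ± 5.01 CPM in WT (log2 fold change 3.30 with an SE of 0.25, edgeR adjusted p = 5.54e-05). Il1rn, an antagonist of the interleukin-1 receptor, had a log2 fold change of 3.07, Egr1, an early response factor, 1.31 and Nfkbia, an NF-kappaB inhibitor, 1.06 (edgeR adjusted p = 1.84e-04, 7.37e-05 and 3.63e-04). Il1b was higher by 3.33 (edgeR adjusted p = 0.00434, and 0.0747 without WT replicate 1). Ptgs2, a prostaglandin synthase, fell by 0.67 (edgeR adjusted p = 0.0104, and 0.0557 without CML replicate 3). Tnf had a mean of 7.29 ± 1.56 CPM in CML against 9.38 ± 0.68 CPM in WT and did not pass.

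Genes of alternative macrophage activation, a programme that Mrc1, Mgl2 and Clec10a are used to mark, were examined apart from those 3. Of 12 tested of 16, 6 passed as higher and 1 as lower, beside 10.2% and 7.20% of all genes tested. Nothing is read from these counts, since the list was chosen with earlier results known. Pdcd1lg2, a ligand of PD-1, had a mean of 82.3 ± 8.70 CPM in CML against 10.5 ± 0.57 CPM in WT (log2 fold change 2.97 with an SE of 0.13, edgeR adjusted p = 1.93e-08). Il4ra, the receptor chain for interleukin-4 and interleukin-13, had a mean of 161 ± 26.0 CPM in CML against 79.5 ± 14.8 CPM in WT (log2 fold change 1.02, edgeR adjusted p = 7.5e-04). Ccl24, a chemokine, had 151 counts in CML against 1 count in WT, a ratio of 161 (95% interval 28.5 to 6401, counting error only). Socs1 was higher by 1.38 (edgeR adjusted p = 0.00691) and Irf4 by 3.95 (0.00427, and 0.0635 without WT replicate 1). Pparg fell by 1.53 (edgeR adjusted p = 0.0328, lost without any 1 CML library or WT replicate 3, at 0.067, 0.097, 0.0535 and 0.081). Stat6, the factor downstream of Il4ra, did not pass (log2 fold change 0.26) except with library totals, and Arg1, Retnla, Klf4 and Ccl17 had too few counts for the fit. Of these, Arg1 had 11 counts in CML against 9 in WT, Klf4 had 20 against 12, both with overlap, and Retnla had 0 in every library. Ccl17 had 54 counts in CML against 3 in WT, with no overlap. The Ccl17 ratio, scaled by library size, was 19.2 (95% interval 6.23 to 96.0, counting error only).

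Other C-type lectin domain genes moved in both directions. Of 17 tested of 38 listed, 4 passed as higher and 2 as lower, with a median log2 fold change of 0.37. Fcer2a, the low-affinity IgE receptor, had a mean of 2.53 ± 0.60 CPM in CML against 0.55 ± 0.10 CPM in WT (log2 fold change 2.17, edgeR adjusted p = 0.00115). Cd72, Clec2d and Olr1 were higher by 0.92, 0.45 and 1.76 on the log2 scale (edgeR adjusted p = 0.0112, 0.0118 and 0.0162), and Thbd and Clec1a had log2 fold changes of -0.92 and -1.42 (0.0199 and 0.0388). Each of these 5 calls was lost without WT replicate 2, at edgeR adjusted p-values of 0.0579 (Cd72), 0.0674 (Clec2d), 0.0853 (Olr1), 0.108 (Thbd) and 0.0767 (Clec1a). Cd72 was also lost without CML replicate 2 (0.0561) and Olr1 without CML replicate 3 (0.0882), and Clec1a without any 1 library (0.0635 to 0.165). Clec1a was lost too with library totals (edgeR adjusted p = 0.0520), the replicate block (0.0594) and DESeq2 (adjusted p = 0.122). The list had 7 genes higher without CML replicate 1, and 1 higher and 0 lower without WT replicate 2. Cd69 had a mean of 411 ± 25.6 CPM in CML against 495 ± 76.4 CPM in WT and did not pass, except without WT replicate 3 (log2 fold change -0.39, edgeR adjusted p = 0.0151).

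Among Toll-like, NOD-like and scavenger receptors, 8 of 15 tested passed as higher and 2 as lower. The higher ones were 5 without CML replicate 2 and 4 without WT replicate 2, and none was lower without CML replicate 3 or WT replicate 1. Nod2, a sensor of bacterial muramyl dipeptide, had a log2 fold change of 1.41 (edgeR adjusted p = 5.48e-04), Tlr7 of 1.65 (0.00633), Tlr1 of 2.68 (0.00626) and Nlrp3 of 2.72 (0.00986). Tlr2 was higher by 0.91 (edgeR adjusted p = 0.0098, and 0.053 without CML replicate 2 or 0.0571 without WT replicate 2). Cd36, a scavenger receptor for lipids, fell by 1.92 (edgeR adjusted p = 0.0104, and 0.0544 without CML replicate 3 or 0.0518 without WT replicate 1). Tlr4 had a mean of 107 ± 15.8 CPM in CML against 134 ± 22.8 CPM in WT and did not pass, except without WT replicate 3 (log2 fold change -0.46, edgeR adjusted p = 0.0257).

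Of 14 tested myeloid transcription factors, 5 passed as higher and 1, Pparg, as lower. Only 2 were higher without WT replicate 1 and 3 without WT replicate 2. Tfec and Runx1 had log2 fold changes of 0.71 and 0.61 (edgeR adjusted p = 0.00119 and 0.00191). Mitf was higher by 1.37 (edgeR adjusted p = 0.014, and 0.0867, 0.0701 and 0.0713 without WT replicate 1, 2 or 3). Spi1, which encodes PU.1, had a mean of 43.6 ± 1.71 CPM in CML against 32.4 ± 5.67 CPM in WT (log2 fold change 0.43, edgeR adjusted p = 0.0478). That call was lost without any 1 library but WT replicate 3, at adjusted p = 0.0675, 0.143, 0.11, 0.17 and 0.216. The Spi1 call was also lost with RLE scaling (edgeR adjusted p = 0.0504) and with no count filter (0.0604). Nfkb1 (log2 fold change 0.12) did not pass. Gata2 (0.71) did not pass with edgeR over all 6 libraries (adjusted p = 0.0931), but did with DESeq2 (0.00882) and without CML replicate 1 (2.74e-04).

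Markers of other cell types were measured in the same libraries, as lists of which some genes are shared between cell types. The 13 mast cell and basophil markers summed to 2471, 8686 and 5449 CPM in the CML libraries, against 159 to 355 CPM in the WT libraries, and 9 passed as higher. Without WT replicate 1 only 3 of the 13 passed. That sum was lowest in CML replicate 1 and highest in CML replicate 2, and so were Mrc1, Clec10a and Clec4n but not Mgl2, Clec7a or Clec5a. This order was not particular to mast cell markers. The monocyte and macrophage, dendritic, megakaryocyte and erythroid sums below had it too, while the neutrophil sum was highest in CML replicate 3. Cpa3, a mast cell protease gene, had a log2 fold change of 4.95 (edgeR adjusted p = 0.00846, and 0.0519 without WT replicate 1 or 0.104 with the replicate block). Monocyte and macrophage markers summed to 360 to 410 CPM in CML and 242 to 301 CPM in WT, and of 10 tested of 17, 5 passed as higher and 1 as lower, which was lost without any 1 library. Adgre1, which encodes F4/80, had a mean of 67.4 ± 15.2 CPM in CML against 1.50 ± 0.06 CPM in WT, while Lyz2 had a mean of 230 ± 14.4 CPM in CML against 228 ± 29.0 CPM in WT. Lyz2, which did not pass, thus held a large part of the monocyte and macrophage sums in both groups. C1qa, a gene of mature macrophages, had 3 counts or fewer in all libraries together.

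Dendritic cell markers summed to 199 to 508 CPM in CML and 163 to 264 CPM in WT. Of 10 tested, 6 passed as higher and 0 as lower, with a median log2 fold change of 3.23. Only 2, 2 and 3 were higher without WT replicates 1, 2 and 3. Cd24a, which did not pass, held a large part of these sums. It had 100, 171 and 132 CPM in the CML libraries, against 236, 172 and 110 CPM in the WT libraries. Neutrophil markers summed to 169 to 259 CPM in CML and 140 to 254 CPM in WT, and 0 of 8 tested passed with edgeR or DESeq2 (1 had an unadjusted edgeR p under 0.05). Csf3r passed as higher without WT replicate 3 (edgeR adjusted p = 0.00814), and Prtn3 as lower with the replicate block (0.0432). Camp, Ly6g and Retnlg had at most 3 counts in all. Megakaryocyte and platelet markers, the cells known for Clec1b, summed to 277 to 406 CPM in CML and 339 to 379 CPM in WT. Of 10 tested, 1 passed as higher and 2 as lower. The higher one, Itgb3, passed in every alternative (log2 fold changes from 1.50 to 1.76). Itga2b, among the lower, lost its call in 6 of 12 alternatives. Erythroid markers summed to 38.1 to 132 CPM in CML and 214 to 236 CPM in WT, a sum that the haemoglobin genes Hbb-bt (35.5 ± 18.7 CPM in CML against 167 ± 9.97 CPM in WT) and Hbb-bs carried in WT. Of 7 tested, these 2 passed as lower and the erythroid factors Klf1 and Gata1 as higher, with a median log2 fold change of 1.24. The higher ones were 5 without CML replicate 1 and 1 without CML replicate 3 or any 1 WT library. Of the lower ones, 1 was left without CML replicate 3 or WT replicate 2 or 3 and 0 without WT replicate 1. With no count filter, Hbb-bt, Hbb-bs and Gata1 did not pass (edgeR adjusted p = 0.0718, 0.0532 and 0.0878). Gata1 did not pass with the replicate block either (0.0618). The part of these cell types in the levels of the 10 receptors was not tested. Of the gate genes, Kit had a mean of 309 ± 100.5 CPM in CML against 292 ± 9.05 CPM in WT, and Ly6a a mean of 106 ± 57.5 CPM in CML against 52.2 ± 12.1 CPM in WT. Slamf1, which encodes CD150, had a mean of 14.2 ± 4.35 CPM in CML against 24.7 ± 6.61 CPM in WT. It passed as lower (log2 fold change -0.80, edgeR adjusted p = 0.0470). The groups overlapped, with CML replicate 2 at 19.2 CPM and WT replicate 3 at 18.7 CPM. The call was lost without CML replicate 1 or 3 or WT replicate 1 or 2 (0.0946, 0.152, 0.134 and 0.158). It was also lost with library totals (edgeR adjusted p = 0.0563) and with a minimum mean of 50 counts (0.0520). Transcripts of all 3 gate genes were thus detected in both groups.

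**Figure D5:**
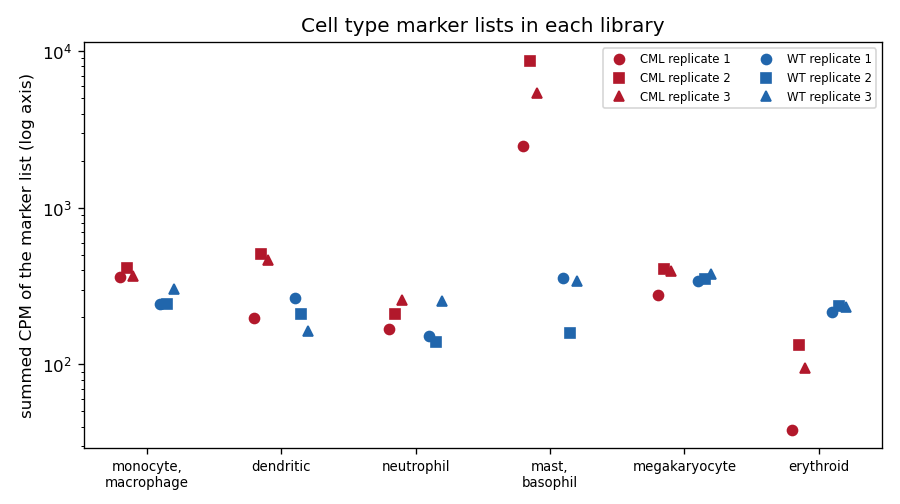
Summed CPM of 6 lists of cell type markers in each library, on a log axis, with CML left of WT. The mast cell and basophil sum lies between 2471 and 8686 CPM in CML, above every WT library (at most 355 CPM).

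Genes beside the receptors were looked at within 200 kb. Around Clec4n, Clec4d and Clec4e, 2 of the other 6 genes were tested. Neither passed with edgeR or DESeq2, and 1, Clec4a2, had an unadjusted edgeR p under 0.05 (log2 fold change 1.05, edgeR adjusted p = 0.0710). Around Clec12a, Clec1b and Clec7a, 9 of 18 were tested, with Olr1 and Clec2d higher and Clec1a and Klrk1 lower in CML. Klrk1 had a log2 fold change of -1.78, a call lost without CML replicate 1 or 3 or WT replicate 2 or 3 (edgeR adjusted p = 0.0683, 0.115, 0.124 and 0.0533). Around Mgl2 and Clec10a, 13 of 22 were tested and Gabarap passed, with a log2 fold change of 0.57 (edgeR adjusted p = 0.0108, and 0.0527 without CML replicate 2 or 0.0801 without WT replicate 2). Around Mrc1, 4 of 7 were tested and Hacd1 passed as lower, with a log2 fold change of -1.16 (edgeR adjusted p = 4.32e-04). Around Clec5a, Ssbp1 passed as lower, out of 3 tested (log2 fold change -0.42). Its call was lost without CML replicate 2 or 3 or WT replicate 1 or 2, at edgeR adjusted p = 0.0950, 0.106, 0.112 and 0.118.

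The genes most like each receptor across libraries were named by Pearson's r of log2(CPM + 0.5) over the 6 libraries, among 11227 genes with a mean of at least 5 CPM. Where both genes differ between the groups, these points share that difference. The named genes were also picked as the highest r among 11227 genes, and over 6 points r can be high by that selection alone. So r describes the libraries and is given without a test. Fyn, Pdk1 and Hacd1 were most like Clec4e (r from 0.998 to 0.999), and 264 genes had r over 0.95 with it. Tent5c, Lpxn and Rnf128 were most like Mrc1 (r = 0.999 each, 511 genes over 0.95). Tyms and Cish were among those most like Mgl2 (r from 0.998 to 0.999, 323 genes), and Ubap1, Itpripl2 and Runx1 most like Clec10a (302 genes). For Clec7a, Mfsd6 was the closest gene (r = 0.984), and 34 genes had r over 0.95. For Clec12a, Xpo5 was closest (r = 0.999, 36 genes), though Xpo5 did not pass in any fit (log2 fold changes from -0.18 to -0.04). Golm1, Polr3b and 9330182L06Rik were most like Clec4d, and Gba2, Prmt2 and Prpf18 most like Clec5a.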

How the data were processed

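Bulk RNA was sequenced from 3 CML and 3 WT libraries of mouse bone marrow cells, with column-purified RNA and transposase-made libraries per the labels' protocols. The authors' deposited values are estimated counts for each gene, and 35.0% to 36.9% of them per library were not whole numbers. The submitters' processing notes name STAR 2.7.3a, Partek 8.0 and mm10 without their roles. Annotation, strand setting and the handling of shared reads: not given in the sources used here.

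Counts were rounded, filtered with filterByExpr (minimum count 10, leaving 16221 genes) and tested two-sided with edgeR 4.0.16 (R 4.3.3) by its quasi-likelihood F test, after TMM scaling, with Benjamini-Hochberg adjustment over all genes tested. The threshold was an adjusted p of 0.05. Intervals (95%) cover counting error only, since PCR reads without molecular identifiers are not independent molecules. Alternatives were library totals, RLE scaling, DESeq2 1.42.0, other count filters, each library left out and a replicate block. The scripts were tested on simulated data.

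Coordinates and transcript lengths came from GENCODE M21 by symbol (all 10 receptors, 96.9% of all symbols), and promoters from RefSeq on GRCm38.p6. The receptors and all gene lists were chosen with earlier results of these data known. Named genes were all receptors, up to 6 called genes with the lowest adjusted p and 2 abundant uncalled genes per list, the adaptors Fcer1g, Tyrobp, Syk and Card9, the gate genes, abundant markers and the 3 genes most like each tested receptor, of which the text gives a part. Some genes that this rule names are not reported here.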

Additional observations from a re-analysis of the deposited data

How the results depend on the processing

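Of the 8 receptor genes in the fit, 6 kept their call in each alternative in which they were tested and none changed direction. The receptors were chosen with this contrast known in the same libraries, so these calls describe the fits and do not test the difference. Clec7a lost its call without CML replicate 2, without any 1 WT library, with no count filter and with the replicate block (log2 fold change 2.09), and Clec12a lost it with library totals, with no count filter and in the 4 fits without single libraries given above. The causes were not tested. The count of receptor genes higher was 4 to 5 and that of those lower 2 to 3 with single libraries left out. Across all genes, those higher ran from 1011 to 2021 and those lower from 455 to 2101 with single libraries left out. With library totals, 732 genes were lower and 73.8% of the calls were higher, against 58.6% with TMM scaling, and the median of all genes lay at 0.094 on the log2 scale. Signalling partners higher ran from 2 to 7 with single libraries left out, and the 1 lower gene kept its call. Libraries with the same number did not deviate together (correlations of -0.030, -0.047 and 0.010), so the numbers were not used as pairs, and with the replicate block 1607 genes were higher and 1200 lower. Of the 62 named genes other than the receptors that passed the threshold, 33 passed in every alternative and none reversed. Depth limits Clec4n and Clec1b (at most 20 counts per group) and Mgl2 in WT.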
